A study of Mus musculus with 12 samples.

Results

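RNA of B cell and MHC class II genes was read in every library of a neutrophil RNAseq data set, as a record of transcripts that neutrophils are not known for. The 9 genes were chosen by name: Cd79a, Cd79b, Ms4a1, Ighm, Igkc and Ebf1 mark B cells, and Cd74, H2-Aa and H2-Ab1 belong to MHC class II. They are 9 of the 28987 genes in the deposited table and stand on 10 of its rows, because the symbol Ebf1 appears on a second row. Neutrophils of FVB mice, wild-type (WT) or MRP8-Bcl2, were collected at 2 sites, bone marrow (BM) and peritoneum (PT). This gives 4 groups of 3 libraries, BM WT and PT WT, and BM Bcl2 and PT Bcl2. All mice, including those that gave BM cells, had been injected with 2 mL thioglycollate, which draws neutrophils into the peritoneum. MRP8-Bcl2 mice express human Bcl-2 from the MRP8 promoter, active in myeloid cells. The sample labels place collection 6 h after injection and give macrophages as the source, while the methods and the deposited design text give neutrophils, and the methods give other collection times. Cells were sorted by flow cytometry, and the methods describe PT and BM cells of the same mice, but the columns, numbered 1 to 12, do not say which mouse each library came from.

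B cells carry an antigen receptor made of a membrane immunoglobulin and a signalling pair, CD79A and CD79B. They also present peptides on MHC class II, which is shared with dendritic cells and many macrophages. The invariant chain, encoded by Cd74, holds the class II groove closed until the complex reaches the endosome, and H2-Aa and H2-Ab1 encode the alpha and beta chains of the mouse I-A molecule. The bone marrow makes B cells from Ebf1-dependent precursors, and the peritoneal cavity holds resident B-1 cells rich in IgM. Mature neutrophils have little of these transcripts.

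Values are TPM, a measure of transcript abundance corrected for length, so levels of different genes can be compared. Library depth was estimated from the steps between low values: a single read of a 1000-nt transcript counted for 0.257 to 0.336 TPM in PT WT and 0.324 to 1.11 in BM WT. In MRP8-Bcl2 libraries it counted for 0.675 to 1.20 TPM (BM) and 0.496 to 0.80 (PT). The 108 genes whose transcripts hold 31 or more A or T in a row (homopolymer genes) took 8.93 to 65.6% of the listed TPM of a library, which lowers the TPM of other genes. S100a8 and S100a9, abundant neutrophil transcripts, together had 75010 to 325000 TPM in BM libraries and 10500 to 57070 in PT libraries. Mouse Bcl2, where reads of the human transgene could be assigned, was at 0.219 to 2.37 TPM in WT libraries and at 166 to 333 in BM Bcl2. Of the PT Bcl2 group, libraries 7 and 8 had 82.8 and 58.6 TPM, but library 9 had 0.695, within the WT range, and was kept under its label.

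The 6 B cell genes were present in nearly every library. Of the 9 genes, 8 were above 0 in all 12 libraries, and Cd79a was above 0 in 11. Together the 9 genes made up 0.0405% (library 3, BM Bcl2) to 1.07% (library 12, PT WT) of a library's listed TPM, with 0.962% in library 7 (PT Bcl2). Libraries 12 and 7 held the highest value of 8 of the genes: library 12 for Igkc, Ighm, Ms4a1, Ebf1, Cd79b and H2-Ab1, and library 7 for Cd79a and Cd74. H2-Aa was highest in library 2 (BM Bcl2). In bulk RNA, fewer cells of a type cannot be told apart from less RNA per cell.

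**Figure D1:**
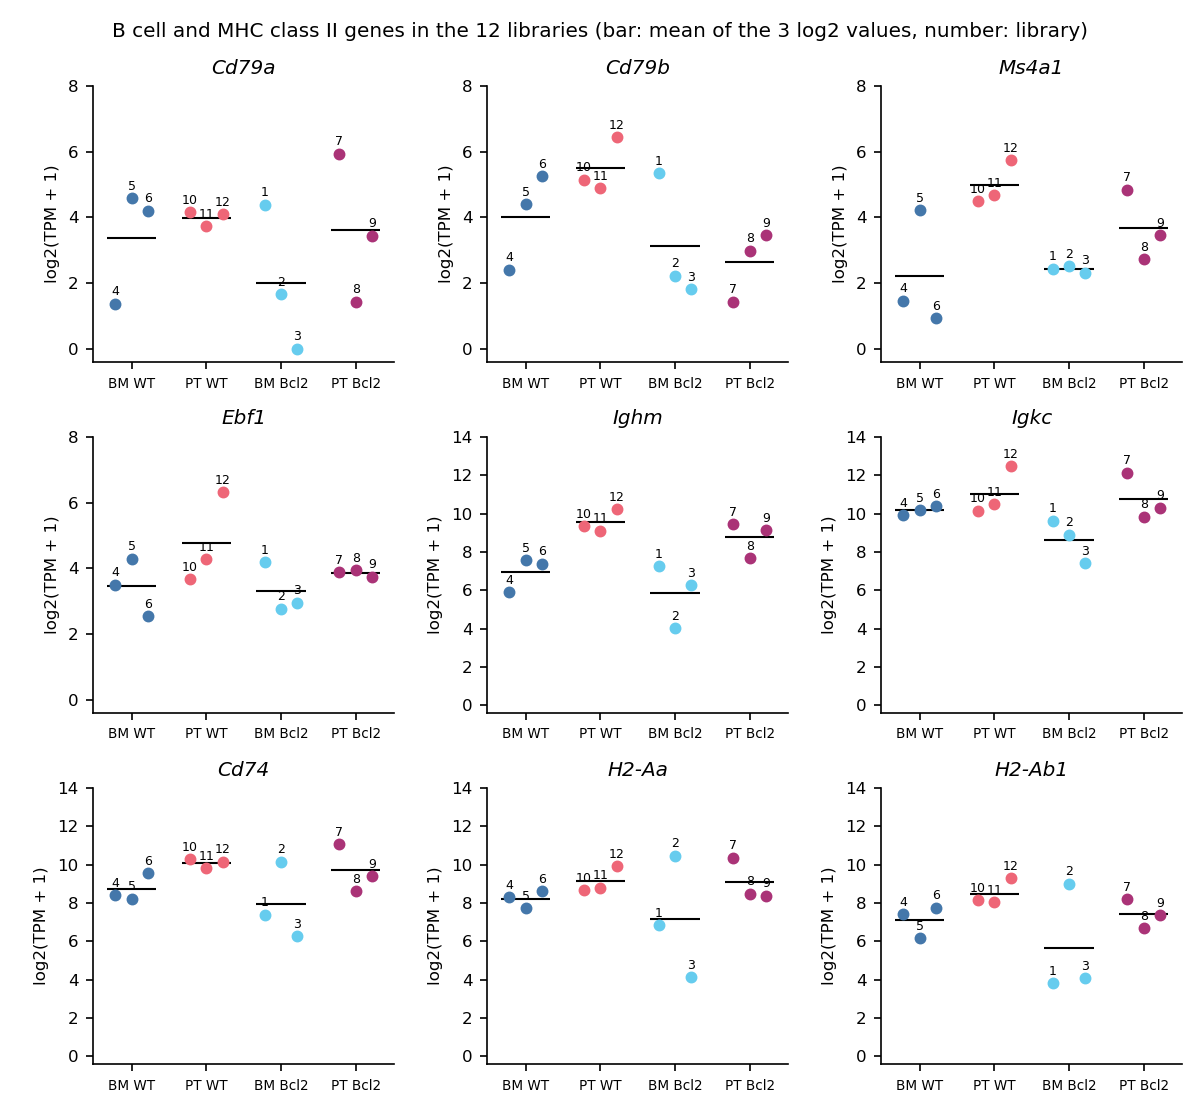
Level of each gene in the 12 libraries, as log2(TPM + 1), by group. Points are libraries, numbered as in the deposited table, and bars are means of the 3 log2 values. Library 12 was highest for 6 of the 9 genes, and library 2 was far above libraries 1 and 3 of the same group for Cd74, H2-Aa and H2-Ab1 but not for the B cell genes.

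Immunoglobulin transcripts were the most abundant of the B cell genes. Igkc (chromosome 6, 70726435-70726966, plus strand, GRCm38) encodes the constant region of the kappa light chain. It measured 977, 1147 and 1354 TPM in BM WT, against 1142, 1437 and 5641 in PT WT. BM Bcl2 libraries had 789, 480.0 and 168 TPM and PT Bcl2 libraries 4531, 918 and 1273. All 3 PT Bcl2 libraries were above all 3 BM Bcl2 libraries, and BM Bcl2 was below BM WT without overlap, whereas the WT groups overlapped. Among the genes above 0 in a library, Igkc stood at the 95.4th to 99.9th percentile. An estimated 38.6 reads carried its lowest value, in library 3, and 4856 reads its highest, in library 12.

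Ighm, on chromosome 12 (113418558-113422730, minus strand), encodes the IgM heavy chain constant region. Its levels were 59.0, 189 and 167 TPM in BM WT, against 656, 554 and 1202 in PT WT. In MRP8-Bcl2 mice they were 150.4, 15.1 and 76.6 TPM in BM and 697, 204 and 565 in PT. In both genotypes every PT library was above every BM library. The ratio of Igkc to Ighm was 6.07 to 16.6 in BM WT and 1.74 to 4.69 in PT WT, so the WT groups did not overlap. BM Bcl2 (2.19 to 31.7) and PT Bcl2 (2.26 to 6.504) did overlap.

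The receptor chains and CD20 were far lower, and their estimated read numbers were small. Cd79a (chromosome 7, 24897381-24902197, plus strand) had 1.58, 23.1 and 17.4 TPM in BM WT, against 16.9, 12.3 and 16.0 in PT WT. In BM Bcl2 it had 19.9, 2.15 and 0 TPM, and in PT Bcl2 60.4, 1.70 and 9.86. The groups of either genotype overlapped. Values of 1.58, 2.15 and 1.70 TPM rested on about 3.0, 3.0 and 4.0 reads, and in library 3, listed at 0, 1 read would have been worth 1.00 TPM.

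Cd79b, on chromosome 11 (106311341-106314762, minus strand), partners CD79A. In WT mice it had 4.32, 20.2 and 37.2 TPM in BM and 34.4, 28.6 and 85.7 in PT. MRP8-Bcl2 libraries had 39.6, 3.68 and 2.52 TPM in BM and 1.70, 6.95 and 10.1 in PT. PT Bcl2 lay below PT WT without overlap. The paired chains did not move together in library 7, which held the highest Cd79a and the lowest Cd79b of all libraries, a ratio of 35.5 against 0.187 to 1.14 in the other libraries with Cd79a above 0. About 90.7 and 2.5 reads stood behind those values.

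Ms4a1, which encodes CD20, lies on chromosome 19 (11249675-11266241, minus strand). It had 1.75, 17.8 and 0.898 TPM in BM WT, against 21.7, 24.5 and 52.4 in PT WT. BM Bcl2 values were close to each other, at 4.43, 4.75 and 3.98 TPM, and PT Bcl2 values were 27.8, 5.66 and 10.03. PT was above BM without overlap in both genotypes.

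Ebf1 (chromosome 11, 44617317-45008091, plus strand) encodes a transcription factor that commits precursors to the B lineage. Its levels were 10.3, 18.7 and 4.86 TPM (BM WT), 11.8, 18.6 and 79.3 (PT WT), 17.2, 5.85 and 6.77 (BM Bcl2) and 13.8, 14.5 and 12.4 (PT Bcl2). Every pair of groups compared overlapped, and the SD of 37.2 TPM in PT WT exceeded that group's mean of 36.6. The second row with this symbol was at 12.1 TPM in library 5, 3.08 in library 10, 0.553 in library 11 and 0 in the others, and was not tested because too few libraries reached 1 TPM.

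Among MHC class II genes, Cd74 was the most abundant by mean in both WT groups and in PT Bcl2. It had 342, 298 and 758 TPM in BM WT, against 1240, 892 and 1137 in PT WT. The BM Bcl2 libraries had 167, 1139 and 76.9 TPM and the PT Bcl2 libraries 2166, 393 and 681. PT WT was above BM WT without overlap, and the MRP8-Bcl2 groups overlapped through library 2.

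H2-Aa (chromosome 17, 34282744-34287823, minus strand) had 315, 212 and 393 TPM in BM WT, against 404, 445 and 965 in PT WT. In BM Bcl2 it had 113, 1423 and 16.4 TPM, and in PT Bcl2 1317, 358 and 333. The WT groups did not overlap, with 393 and 404 TPM as their nearest values. The level in library 2 was the highest of all 12, and the level in library 3 of the same group was the lowest.

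H2-Ab1, whose product pairs with that of H2-Aa, is its neighbour on chromosome 17 (34257689-34269419, plus strand). Its levels were 168, 71.1 and 216 TPM in BM WT, against 280.4, 262 and 623 in PT WT. In MRP8-Bcl2 mice it was at 13.2, 513 and 15.9 TPM in BM and at 295, 102 and 164 in PT. The pattern was that of H2-Aa: no overlap in WT, and library 2 above the other 2 of its group and above all PT Bcl2 libraries.

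The start of H2-Aa is shown because MHC class II genes share a promoter module, in which the Y box binds NF-Y and the X2 box binds factors of the CREB family. RefSeq sequence of the C57BL/6J reference was used (GRCm38.p6), whereas these mice were FVB, and the motifs were chosen after the results were known. Of the 9 genes, 3 had an entry in the promoter table used (Cd79a, Ebf1 and H2-Aa), and H2-Eb1 is added as a further class II beta chain. The stretches hold the 120 bases before each start, chr17:34287824-34287943 (minus strand) for H2-Aa and chr17:34305747-34305866 (plus strand) for H2-Eb1, written 5′ to 3′. Capitals mark TGACGTCA (X2) and TGATTGG (Y box core), each searched on both strands.
H2-Aa: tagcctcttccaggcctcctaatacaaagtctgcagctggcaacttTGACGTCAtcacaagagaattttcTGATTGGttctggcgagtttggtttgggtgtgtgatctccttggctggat
H2-Eb1: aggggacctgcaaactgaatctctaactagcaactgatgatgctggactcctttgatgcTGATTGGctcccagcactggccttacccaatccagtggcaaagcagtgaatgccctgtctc
The Y box core began 50 bases before the start of H2-Aa and 61 before that of H2-Eb1, and the X2 letters began 74 bases before the H2-Aa start. Of 7 further class II genes, 6 held TGATTGG in their 300-base windows and 0 held TGACGTCA. Among all 32851 windows of that length, 7.82% held TGATTGG and 1.79% held TGACGTCA. Both genes carry a Y box core in the reference sequence, and the sequence of FVB mice was not compared. Over the 12 libraries H2-Aa was at 16.4 to 1423 TPM and H2-Eb1 at 0 to 10.3. The cause of this difference in level was not tested.

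Upstream of Cd79a, a target of EBF1, the bases before the annotated gene are chr7:24897247-24897380 (plus strand), shown because Ebf1 and Cd79a are both among the 9 genes. Capitals mark AAGGGAAT, letters like those EBF1 binds, found in 1.22% of all windows on either strand, while the palindrome CCCNNGGG (13.7% of windows) was not in this window.
Cd79a: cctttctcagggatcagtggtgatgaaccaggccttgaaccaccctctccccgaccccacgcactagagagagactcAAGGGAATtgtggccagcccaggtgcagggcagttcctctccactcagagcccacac
A match is a description of letters only. The highest values of Ebf1 and Cd79a lay in different libraries, and the next highest of both in library 5 (18.7 and 23.1 TPM). Ebf1 was highest in library 12, where Cd79a had 16.0 TPM, and Cd79a was highest in library 7, where Ebf1 had 13.8.

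Library 2 stood apart from the rest in the balance of the gene groups. The 3 MHC class II genes summed to 3075 TPM there and the 6 B cell genes to 511.6, a ratio of 6.01, and in the other 11 libraries this ratio was between 0.287 and 1.02. In the same group, library 1 had sums of 293.2 and 1020 TPM and library 3 had 109.3 and 257.8. Library 2 also held the lowest Ighm of all libraries, 15.1 TPM. Its 10 dendritic cell genes summed to 36.9 TPM against 21.3 and 22.9 in the other BM Bcl2 libraries. Of these, Cd209a was at 15.4 TPM in library 2 against 0 and 2.91 in libraries 1 and 3, and Itgax at 7.62 against 1.65 and 0.634. Siglech went the other way, at 5.31 TPM against 16.4 and 9.02. Clec9a was at 0 in library 2 and at 0.870 TPM in library 1, and Ccr9 was at 0.388 against 0.145 and 4.06. Batf3 was at 0 in all 12 libraries, and Flt3 was under 1 TPM in each. The 12 macrophage genes summed to 110.1 TPM in library 2 against 21.1 and 65.8 in libraries 1 and 3. C1qb and C1qc were at 17.7 and 13.7 TPM in library 2 and at 0 in libraries 1 and 3, but Icam2 was at 0 against 4.66 and 24.0. Library 4 (BM WT) had a macrophage sum of 110.6 TPM, with C1qb and C1qc at 28.4 and 26.9, and its ratio of MHC class II to B cell genes was 0.782. Whether dendritic cells or macrophages had a part in the level of MHC class II RNA was not tested.

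**Figure D2:**
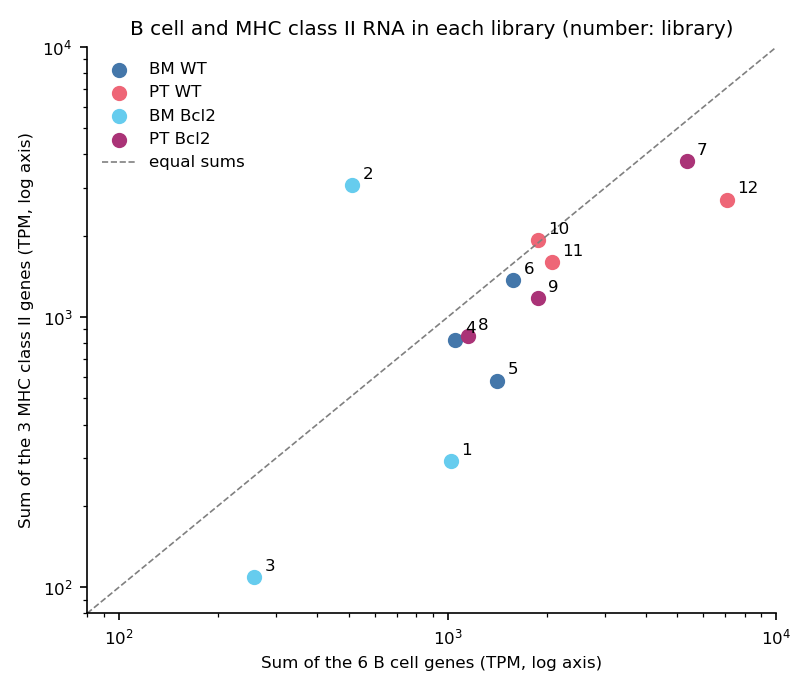
Summed TPM of the 6 B cell genes (horizontal, log axis) and of the 3 MHC class II genes (vertical, log axis) in each library, with groups by colour. The dashed line marks equal sums. Library 2 lies far above the line at 511.6 and 3075 TPM, and libraries 7 and 12 hold the highest B cell sums, 5331 and 7077 TPM.

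The first comparison asked how the genes differ between PT and BM cells of WT mice. All 9 had a higher mean log2 level in PT, from Cd79a (log2 fold change 0.61) to Ms4a1 (2.77), with a median of 1.34. The median over all 13456 tested genes was 0.22. A call required at least a 2-fold change and an adjusted p (limma, Benjamini-Hochberg over all tested genes) under 0.05, and 0 of the 9 genes met it. Of all tested genes, 1.59% were called higher and 1.22% lower. Ighm came nearest, with a log2 fold change of 2.61 ± 0.76 (SE, n = 3 libraries per group, limma adjusted p = 0.0841, 95% interval 0.98 to 4.24). Ms4a1 followed, at 2.77 ± 0.87 (adjusted p = 0.109 by limma, interval 0.91 to 4.62). These were the 2 of 9 with an unadjusted p under 0.05, which 10.2% of all genes reached on the higher side with a 2-fold change.

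Cd74 differed by 1.34 ± 0.83 between PT WT and BM WT (SE, limma adjusted p = 0.447), H2-Aa by 0.91 ± 1.11 and H2-Ab1 by 1.38 ± 1.04. The interval for Igkc ran from -0.67 to 2.40 and that for Cd79a from -2.01 to 3.22, wide enough to hold a fall or a large rise. PT WT lay above BM WT without overlap for 5 of 9 genes (Ms4a1, Ighm, Cd74, H2-Aa and H2-Ab1), as it did for 14.9% of all tested genes. With the homopolymer genes left out and TPM rescaled, Ms4a1 (adjusted p = 0.0401, limma) and Ighm (0.0235) were called. That setting moved the median of all genes by 0.50. Without library 5 (BM WT) Ms4a1 was called, and without library 2, which is in neither group but enters the shared estimate of spread, Ighm was.

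In MRP8-Bcl2 mice, the immunoglobulin transcripts rose from BM to PT. Ighm had a log2 fold change of 2.91 ± 0.76 (SE, n = 3 libraries per group, limma adjusted p = 0.0167, 95% interval 1.28 to 4.54), and Igkc one of 2.12 ± 0.72 (adjusted p = 0.0477 by limma, interval 0.59 to 3.66). These 2 of 9 genes were called higher, against 2.31% of all tested genes, and 0 of 9 were called lower, against 19.1%. The median over the 9 genes was 1.76, with 8 of 9 above 0, and the median over all genes was -1.02, with 25.7% above 0. Ms4a1, Ighm and Igkc were higher in PT Bcl2 than in BM Bcl2 without overlap, 3 of 9 genes, as were 5.18% of all tested genes.

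Neither call held under each alternative. Without library 7 (PT Bcl2) 0 genes were called, with adjusted p of 0.0533 for Ighm and 0.173 for Igkc. Without library 2 the calls were Cd74, H2-Aa and H2-Ab1 in place of the immunoglobulin genes, with log2 fold changes of 2.87, 3.60 and 3.47 and adjusted p of 0.0233, 0.0184 and 0.011. Ighm alone was called without library 3, without library 9, whose Bcl2 level was that of WT libraries, or without any 1 of libraries 4, 5, 6, 10 and 11. Over all 12 such fits the adjusted p of Igkc was 0.0299 to 0.205 and that of Ighm 0.00913 to 0.0758 (limma). With each library centred on its median, which moved the median of all genes by 1.59, 5 of 9 genes were called higher: Igkc, Ms4a1, Cd74, Ighm and H2-Ab1. With the homopolymer genes left out, Cd74 was called beside Ighm and Igkc, at 2.51 (adjusted p = 0.0442, limma). With only the 6 libraries of this comparison in the fit, 0 of 9 were called. Igkc was also not called with a pseudocount of 0.1, with no filter on low values or without the eBayes trend, and Ighm was.

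The 3 MHC class II genes had log2 fold changes of 1.76 to 1.93 between PT Bcl2 and BM Bcl2, with adjusted p of 0.135 to 0.224 (limma). The interval for Cd74 ran from 0.00 to 3.53. Cd79b was the 1 gene with a negative value, -0.50 ± 0.99, and its sign turned under centring (1.09), quantile normalization (0.93) and removal of the homopolymer genes (0.20). Cd79a differed by 1.59 ± 1.23, Ms4a1 by 1.26 ± 0.87 and Ebf1 by 0.55 ± 0.77, each within an interval that includes 0.

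**Figure D3:**
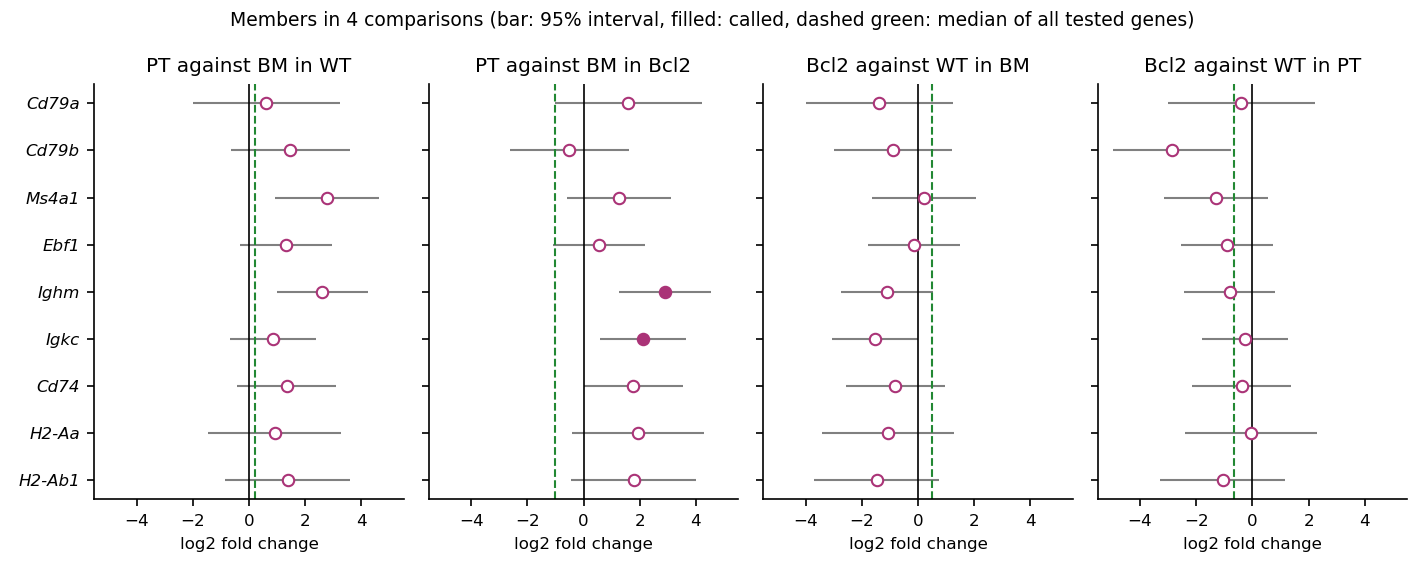
Log2 fold change of each gene in 4 comparisons (horizontal axis), with 95% intervals from limma. Filled points were called, open points were not, and the dashed line is the median of all tested genes. Ighm and Igkc were called for PT against BM in MRP8-Bcl2 mice, at 2.91 and 2.12. For PT against BM the 9 genes lie right of the dashed line in both genotypes, a position of 0.22 in WT and -1.02 in MRP8-Bcl2.

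The comparison of genotypes found no call. In BM, 8 of 9 genes had a lower mean log2 level in MRP8-Bcl2 than in WT cells, with a median of -1.08 and all genes at 0.49. Of all tested genes 0.0223% were called in either direction. None of the 9 had an unadjusted p under 0.05 in limma. Igkc had the lowest value, -1.52 ± 0.72 (SE, limma adjusted p = 0.673, interval -3.06 to 0.01), and was the 1 gene of 9 whose libraries did not overlap, a state that 1.17% of all genes shared in that direction. Ms4a1 was at 0.22 and turned to -0.52 under centring and -0.59 under quantile normalization.

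In PT, all 9 genes had values below 0 for MRP8-Bcl2 against WT (median -0.81, all genes -0.67), but under centring, which moved the median of all genes by 1.07, 7 genes were no longer negative, H2-Ab1 among them at 0.00, and the signs of Cd79b and Ms4a1 remained. Cd79b was at -2.86 ± 0.99 (SE, n = 3, limma adjusted p = 0.297, interval -4.97 to -0.75), with 0.0297% of all genes called lower. Its unadjusted p in the same limma fit was 0.0112, and 12.2% of all genes were lower at an unadjusted p under 0.05 with a 2-fold change. It was the 1 gene of 9 with PT Bcl2 wholly below PT WT, as were 18.8% of all genes. The difference between genotypes in the change from BM to PT was tested as an interaction, and the adjusted p was 0.458 to 0.892 over the 9 genes (limma), with 0 called against 0.0149% of all genes and 0 at an unadjusted p under 0.05. The call of Ighm and Igkc in MRP8-Bcl2 but not in WT mice is thus not shown to be a difference between the genotypes.

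Other genes of the same cells were read from lists of known markers. Of 18 further B cell genes, 15 had values above 0 for PT against BM in WT (median 0.71) and 9 in MRP8-Bcl2 (median 0.09), and 0 were called in either. Over all tested genes the medians were 0.22 and -1.02, with 57.6% and 25.7% above 0. Called higher were 1.59% (WT) and 2.31% (MRP8-Bcl2) of all tested genes, and called lower 1.22% and 19.1%. The 3 most abundant of the list were Cd37, a tetraspanin also found on other leukocytes, at 65.0 to 357 TPM, Pou2af1, an octamer-factor coactivator, at 7.78 to 302, and Tnfrsf13c, the BAFF receptor, at 1.93 to 75.7. Pou2af1 was highest in library 12 as most of the 9 genes were, and Cd37 and Tnfrsf13c were highest in library 7.

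Of 6 further immunoglobulin constant genes in the table, 4 passed the filter, and Ighg3 was called higher in PT than in BM of WT mice (log2 fold change 4.71, limma adjusted p = 0.0139). Ighg3, the constant region of IgG3, had 0, 3.05 and 0 TPM in BM WT, against 28.4, 25.2 and 92.7 in PT WT. In MRP8-Bcl2 libraries it had 2.71, 3.55 and 0 TPM in BM and 40.3, 10.5 and 6.83 in PT, without overlap and not called (2.59, adjusted p = 0.0565 by limma). Among all tested genes, 1.59% were called higher in WT and 2.31% in MRP8-Bcl2 mice. In MRP8-Bcl2 mice 5.18% of all tested genes were higher in PT without overlap. Ighg1 was at 42.5 TPM in library 2 and at 0 in libraries 1 and 3. Iglc2, a lambda light chain constant region, was at 0 to 84.7 TPM and highest in library 11.

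Plasma cell genes were mostly near 0. Tnfrsf17 was 0 in all libraries and Jchain was above 0 in library 4 alone, at 3.91 TPM. Xbp1, which other secretory and myeloid cells also use, was at 48.6 to 660 TPM, Irf4 at 0 to 10.8 and Prdm1 at 0 to 7.25. None of the 5 plasma cell genes tested was called. Of 8 B cell precursor genes, Vpreb1 and Vpreb2 were 0 in all libraries and Vpreb3, a surrogate light chain partner, had 5.32, 18.7 and 12.6 TPM (BM WT), 9.03, 0 and 0 (PT WT), 7.19, 0 and 0 (BM Bcl2) and 0 (PT Bcl2). Of 4 precursor genes tested, 2 were above 0 for PT against BM in WT, Rag2 (1.11) and Il7r (0.91), and 0 were in MRP8-Bcl2. Shares above 0 over all tested genes were 57.6% and 25.7%, and no precursor gene was called. The precursor list had sums of 9.69 to 27.9 TPM (BM WT), 9.43 to 12.96 (PT WT), 4.82 to 16.95 (BM Bcl2) and 1.00 to 6.95 (PT Bcl2).

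All 5 genes linked to peritoneal B-1 cells had values above 0 for PT against BM in both genotypes, with 0 called. Cd5 had the smallest, 0.20 in WT and 0.38 in MRP8-Bcl2. Over all tested genes, 57.6% (WT) and 25.7% (MRP8-Bcl2) were above 0. Fcrl5, an Fc receptor-like protein of B-1 and marginal zone cells, had 0, 0.872 and 0 TPM (BM WT), 1.40, 3.16 and 42.6 (PT WT), 0 (BM Bcl2) and 13.8, 0.402 and 1.16 (PT Bcl2), so PT was above BM without overlap in both. The same held for 14.9% (WT) and 5.18% (MRP8-Bcl2) of all tested genes. The 5 genes summed to 6.81 to 10.6 TPM (BM WT), 22.7 to 68.2 (PT WT), 4.84 to 11.7 (BM Bcl2) and 11.1 to 50.9 (PT Bcl2). The highest single values in the groups lay in different libraries: Fcrl5 in library 12, and Sox5, at 25.7 TPM, in library 9.

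Further class II genes were far less abundant than the 3 main ones. The 7 genes for the I-E beta chains, H2-DM and H2-O, which load and edit peptides, summed to 14.4 to 74.5 TPM per library, against 109.3 to 3779 for Cd74, H2-Aa and H2-Ab1, and 0 of 7 were called. For PT against BM, 5 of 7 had values above 0 in WT (median 0.64) and 2 of 7 in MRP8-Bcl2 (median -0.39). Over all tested genes, 57.6% (WT) and 25.7% (MRP8-Bcl2) were above 0, with medians of 0.22 and -1.02. Called higher were 1.59% (WT) and 2.31% (MRP8-Bcl2) of all tested genes, and called lower were 1.22% and 19.1%. The 3 most abundant were H2-DMb2 at 2.00 to 43.6 TPM, H2-DMa at 0 to 40.5 and H2-Ob at 0 to 38.2. In library 2, where H2-Aa was highest, these 7 genes summed to 34.1 TPM, and in library 3, where it was lowest, to 72.5. H2-Eb1 had its highest value in library 2 as H2-Aa did, 10.3 TPM, with 0 in libraries 1 and 3. Ciita, the master activator of class II transcription, was at 0 to 5.38 TPM, with 3.96 in library 2. Of 8 regulators, Nfya, a subunit of NF-Y, fell by 2.27 on the log2 scale from BM to PT in MRP8-Bcl2 mice (limma adjusted p = 0.0154). It was the 1 regulator called, in a comparison where 19.1% of all tested genes were called lower. The most abundant regulators were Nfya, Nfyc and Nfyb, with means of 40.3, 23.5 and 19.0 TPM over all libraries.

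B cells share receptor signalling and antigen processing genes with myeloid cells, and some of these were called. In WT mice 1.59% of all tested genes were called higher and 1.22% lower, and in MRP8-Bcl2 mice 2.31% higher and 19.1% lower. Ptpn6, which encodes the phosphatase SHP-1, rose from BM to PT in WT mice (2.84, adjusted p = 0.0139) and in MRP8-Bcl2 mice (1.71, 0.0407, limma). Pik3ap1 rose (2.13) and Plcg2 fell by 2.54 on the log2 scale in MRP8-Bcl2 mice, among 8 receptor signalling genes. Lyn and Syk, the next in mean level and both kinases, had means of 166 and 119 TPM and were not called. Of 8 genes for antigen processing and costimulation, Cd80 rose in WT (3.74, adjusted p = 0.0119) and in MRP8-Bcl2 mice (2.24, 0.0363), and Ifi30, a lysosomal thiol reductase, fell by 2.78 in MRP8-Bcl2. Ctss, the cathepsin that trims the invariant chain, had the highest mean of that list, 125 TPM.

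Some markers of other cells were called in the same comparisons, and their part in the results above was not tested. Among all tested genes, 1.59% were called higher and 1.22% lower in WT mice. In MRP8-Bcl2 mice the shares were 2.31% and 19.1%. Of 12 macrophage genes, 10 were tested and 0 called, with sums of 13.8 to 111 TPM (BM WT), 110.4 to 126 (PT WT), 21.1 to 110.1 (BM Bcl2) and 34.9 to 147 (PT Bcl2). Csf1r, Marco and Icam2 had the highest means, and Gata6, which defines large peritoneal macrophages, was above 0 in libraries 10 and 11 alone, at 0.603 and 0.114 TPM. Dendritic cell genes summed to 20.2 to 36.9 TPM in BM libraries and to 33.4 to 353 in PT libraries, and Itgax rose in WT (3.86, adjusted p = 0.0475) and MRP8-Bcl2 mice (3.04, 0.039, limma). Itgax alone made up 313 of the 353 TPM in library 12 and 61.9 of the 91.6 TPM in library 7. Siglech and Ccl22 were next in mean level and not called.

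Among 5 monocyte genes, Ly6c2 was the 1 called in both genotypes: on the log2 scale it fell by 3.87 in WT mice and fell by 4.04 in MRP8-Bcl2 mice. In MRP8-Bcl2 mice 4 of 5 fell, with Ccr2, F13a1 and Ms4a4c beside Ly6c2, where 19.1% of all tested genes were called lower. The share of all tested genes called lower in WT mice was 1.22%. In WT mice Ms4a4c was at 0.42. The sum of the 5 was 2006 TPM in library 3 against 526.8 and 631 in libraries 2 and 1. Nkg7 fell by 3.52 in WT and fell by 5.18 in MRP8-Bcl2 mice among 5 T and NK cell genes tested, while Trac and Trbc2 were 0 in all libraries. Cd3d (5.22 to 174 TPM) had the highest mean of that list, and Nkg7 and Cd4 followed. Of erythroid genes, Hbb-bs fell in WT mice, and Hbb-bs, Hba-a1 and Alas2 fell in MRP8-Bcl2 mice, with a sum of 964 TPM in library 1.

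The 10 eosinophil, mast cell and basophil genes summed to 648 TPM in library 12 against 9.44 to 117 elsewhere. Cpa3, Mcpt4 and Cma1 were each highest in library 12, while Epx, Prg2, Fcer1a, Mcpt8 and Prss34 were at 0 there. Cma1, the mast cell chymase, rose (4.19) and Mcpt8, of basophils, fell by 3.67 in PT against BM of WT mice. Cpa3 alone made up 480.8 of the 648 TPM in library 12. Kit, the next in mean level after Cpa3, was at 3.15 to 70.6 TPM over the libraries. It was highest in library 6 (BM WT) and was at 44.2 TPM in library 12. Of 9 neutrophil genes, 8 were above 0 in all libraries, and Ly6g was at 0 in library 12 and at 13.1 and 14.9 TPM in libraries 10 and 11. In the tests S100a8, S100a9, Ly6g, Ngp and Camp fell from BM to PT in WT mice, while S100a8, S100a9, Ngp and Camp fell and Csf3r rose in MRP8-Bcl2 mice. Called lower were 1.22% (WT) and 19.1% (MRP8-Bcl2) of all tested genes, and called higher were 1.59% and 2.31%. S100a8, S100a9 and Ngp had the highest means, 53970, 63870 and 4720 TPM.

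**Figure D4:**
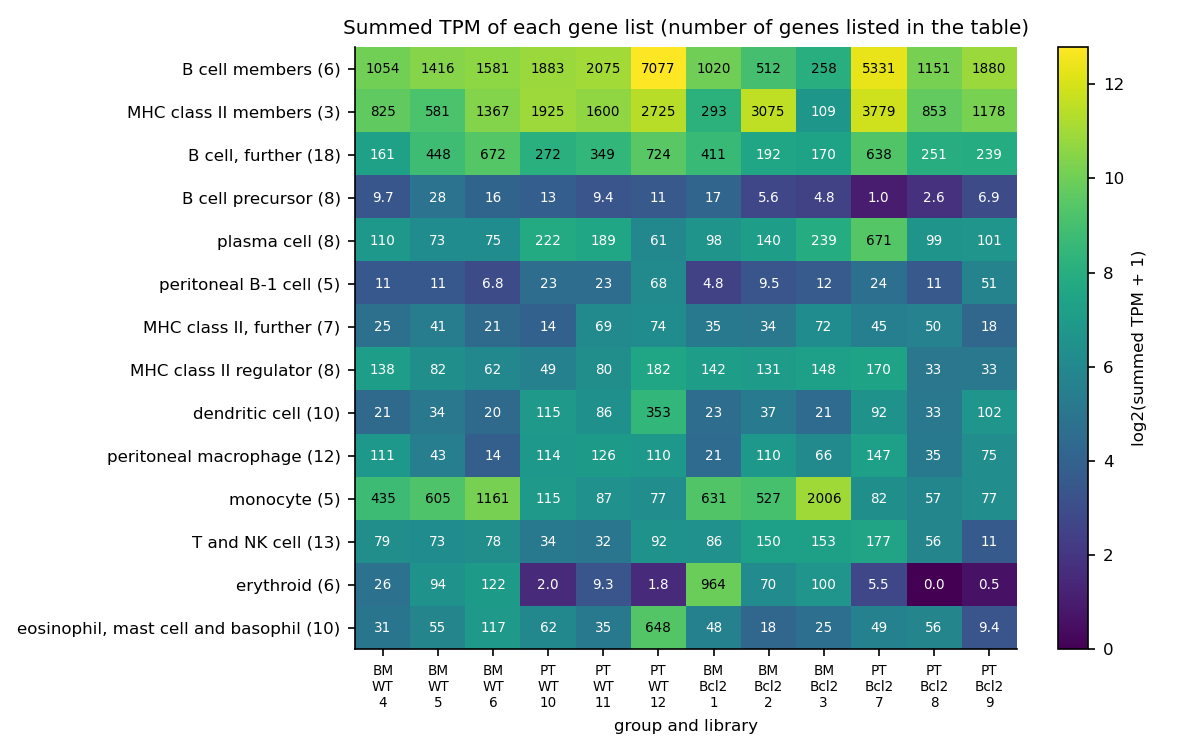
Summed TPM of each gene list (rows) in each library (columns), with the number of genes in brackets and colour for log2(summed TPM + 1). The B cell genes of this report are highest in libraries 12 and 7, 7077 and 5331 TPM. The eosinophil, mast cell and basophil list is highest in library 12 at 648 TPM, and monocyte genes are highest in library 3 at 2006 TPM.

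Genes with a profile most like the mean of the 6 B cell genes over the 12 libraries were Cd300lb (Pearson r 0.957), Cd300ld (0.936), Ralgps1 (0.935), Tigit (0.931), Trim30b (0.927) and Cyp4f18 (0.918), followed by an unnamed gene, Agpat9, Picalm and Antxr2 (0.917 to 0.911). None of the 10 was on a marker list used here. Each B cell gene followed the mean of the other 5 at 0.507 (Cd79b) to 0.82 (Ighm). These values cannot be set against those of the 10 genes, which were picked for the highest r among all tested genes. For the 3 MHC class II genes the 10 nearest were Gm17106 (0.898), Lin28b, Nfatc1, Ifi202b, Tgfbr2, Gm11131, Zfp783, Tgm2, Smad3 and Gm13986 (0.831 to 0.799), and Cd74, H2-Aa and H2-Ab1 followed each other at 0.914 to 0.941. Igkc followed the MHC class II mean at 0.706 and Cd79b at 0.116. These values describe 12 points, of which those of a group share tissue and genotype, and they carry no test.

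Joining and variable segments of the immunoglobulin loci were read beside the constant regions. Of 28 immunoglobulin genes in the table, 4 (library 3) to 13 were at 1 TPM or more in a library. The number was 9 to 12 in BM WT and 12 or 13 in PT WT. It was 4 to 10 in BM Bcl2, with 6 in library 2, and 8 to 10 in PT Bcl2. Joining segments differed between libraries: Igkj5 was highest in library 7 at 2026 TPM, Ighj3 in library 6 at 1873 and Igkj4 in library 12 at 1458. In library 2, Ighj4 was the 1 joining segment above 0, at 88.95 TPM. These segments are short, so that a single read is worth many TPM, and the libraries differ in depth.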

How the data were processed

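RNA of sorted cells was amplified and sequenced, 3 libraries in each of 4 groups. The authors ran AltAnalyze with default values and deposited log2 values of TPM + 1 per gene and library; version and genome build are not given in the sources used here. Pooled linear TPM averages deposited by the authors equal the library means within 7.7e-06 TPM. Deposited fold changes, p-values, marker values, correlations and lineage scores were not used, nor were 2 value columns of 1 library not tied to a sample. Libraries were put in groups by their column names and the header of the deposited marker table. The 13456 genes that reached 1 TPM in 3 or more libraries were tested with limma 3.58.1 (R 4.3.3), eBayes with trend, 8 residual degrees of freedom, a pseudocount of 1, and Benjamini-Hochberg adjustment over all of them. A fold change on this scale understates change at low TPM. The fit was tested on simulated data. It missed part of the large changes put in, so a gene not called can still differ. Alternatives were another pseudocount, 2 other filters, centring, quantile normalization, removal of homopolymer genes, other thresholds, only the 2 groups compared, eBayes without trend, and each library left out. Reads were estimated from 5021 single-transcript genes of at least 800 nt, less 255 nt, and 72.5 to 80.1% of low values lay within 0.15 of a whole read, where 30% would by chance. The columns do not say which libraries came from separate mice, so p-values measure spread between libraries. Genes, lists and tests were chosen with earlier results of these data known; named were the 9 genes, called genes and the 3 highest means of each list, and 10 genes of closest profile. Fcrl5, Sox5, C1qb, C1qc, Ciita, other single list genes and joining segments were named after their values were seen. The values of 1 listed gene are not reported here. Coordinates are GENCODE M21 (GRCm38).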

Additional observations from a re-analysis of the deposited data

How the results depend on the processing

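Of the values of single genes under an alternative, 651 kept direction and side of the threshold, 46 changed sign, 11 passed the threshold and 12 lost it. For PT against BM in WT, 0 calls became 2 without the homopolymer genes and 2 at an unadjusted p, and 0 to 1 when each library was left out. For PT against BM in MRP8-Bcl2, 2 calls became 1 with a pseudocount of 0.1, 1 with no filter, 1 without the eBayes trend, 5 with centring, 3 without the homopolymer genes (Cd74 added), 0 with only the 2 groups fitted, and 0 to 3 when each library was left out. Bcl2 against WT in PT went from 0 calls to 1 (Cd79b) at an unadjusted p. Calls stayed at 0 in BM and for the difference between genotypes with each library left out.

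Signs that turned under centring were Cd79b (1.09, PT against BM in MRP8-Bcl2), Ms4a1 (-0.52, Bcl2 against WT in BM), Cd79a (0.68), Ighm (0.26), Igkc (0.80), Ebf1 (0.16), Cd74 (0.70), H2-Aa (1.02) and H2-Ab1 (0.00) for Bcl2 against WT in PT, and Ms4a1 (0.29) and Ebf1 (1.04) for the difference between genotypes. Quantile normalization turned Cd79b (0.93), Ms4a1 (-0.59), Cd79a (0.12), H2-Aa (0.14) and Ebf1 (0.58) in the same comparisons, and leaving out homopolymer genes turned Cd79b (0.20) and H2-Aa (0.13). The construction of both scalings shifts all genes of a library, by medians of 1.59 and 1.03 for PT against BM in MRP8-Bcl2. With each library left out in turn, signs turned within these ranges: Cd79a -0.40 to 1.21 (PT against BM, WT); Cd79b -1.16 to 0.61 (PT against BM, MRP8-Bcl2). For Bcl2 against WT in BM the ranges were -0.42 to 1.23 (Ms4a1), -0.59 to 0.28 (Ebf1), -1.90 to 0.03 (Cd74) and -2.74 to 0.44 (H2-Aa), and in PT -1.56 to 0.70 (Cd79a), -0.96 to 0.44 (Igkc), -1.06 to 0.17 (Cd74) and -0.69 to 0.35 (H2-Aa). For the difference between genotypes they were -0.18 to 2.17 (Cd79a), -0.62 to 1.00 (Ighm), -1.31 to 0.02 (Ebf1), -0.41 to 1.53 (Cd74), -0.48 to 2.69 (H2-Aa) and -0.50 to 2.09 (H2-Ab1). No paired analysis was possible because the columns carry no replicate or mouse number. Depth limits Cd79a and Cd79b most, at 2.5 to 4.0 estimated reads in their lowest libraries above 0. The cause of these changes was not tested.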
